A study of Mus musculus with 16 samples.

Results

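The genes described here are 9 markers of B cell identity (Cd79a, Cd79b, Ms4a1, Cr2, Fcer2a, Blk, Pax5, Cd22 and Fcrla), followed in the colon of each mouse pup. They were chosen by gene name and make up 9 of the 36711 genes that could be tested and 17 of the 56605 probes on the array that were not controls. Colon RNA of 16 RjOrl:SWISS pups, an outbred stock, was hybridised at weaning on 1-colour Agilent arrays, 1 array per pup. The 8 C-section delivered (CSD) pups were taken by hysterectomy late in gestation and raised by foster mothers, and the 8 vaginally delivered (VD) pups were raised in litters that had been exchanged between mothers. The CSD pups were born to mothers 3 and 4, with 2 females and 2 males from each. The VD pups were 2 females and 3 males of mother 5 and 3 males of mother 6. Delivery mode therefore varied only between litters, with 2 litters on each side. All values are log2 intensities after background correction and quantile normalization between arrays, and they are compared between pups for 1 gene, 1 probe or the mean of 1 list of probes at a time, since different probes have no common scale. Between 58.7% and 64.9% of the spots of an array lay well above background, and 0 spots were saturated.

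B cells recognise antigen with a surface immunoglobulin, which signals through the paired chains CD79A and CD79B and is tuned by kinases such as BLK, by the coreceptor CR2 and by the inhibitory receptor CD22. PAX5 is the transcription factor that holds cells in the B lineage, and it switches on many of the other genes in the set. In the colon most B cells sit in small lymphoid follicles of the wall, while their descendants, the plasma cells, lie scattered in the lamina propria, have lost most of these markers and secrete IgA. In whole colon, fewer B cells and less of each RNA per B cell cannot be told apart.

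The DNA just before the start of transcription is shown because the members varied together from pup to pup. RefSeq promoters on GRCm38.p6 were matched for 6 of the 9 members, and Cd79b, Ms4a1 and Blk were not matched. Fcer2a has 3 such starts, which made 8 windows of 250 bases. The lines below give the 250 bases before the start of 4 windows, 5′ to 3′ on the strand of the gene, with each E-box CAGGTG (or CACCTG, the same letters on the other strand) in capitals. This E-box is the core bound by the lymphoid E proteins.
Cd79a, chr7:24897247-24897496, plus strand: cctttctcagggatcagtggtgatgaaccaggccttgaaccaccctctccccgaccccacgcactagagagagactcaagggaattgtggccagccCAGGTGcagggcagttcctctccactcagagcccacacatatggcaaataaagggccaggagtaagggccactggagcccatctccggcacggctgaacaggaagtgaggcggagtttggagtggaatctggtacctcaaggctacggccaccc
Cr2, chr1:195176720-195176969, minus strand: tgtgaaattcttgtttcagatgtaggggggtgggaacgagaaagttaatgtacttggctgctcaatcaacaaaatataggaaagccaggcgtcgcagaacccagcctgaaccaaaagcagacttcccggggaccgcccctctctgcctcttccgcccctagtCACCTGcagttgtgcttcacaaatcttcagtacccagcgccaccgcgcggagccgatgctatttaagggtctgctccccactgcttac
Fcer2a, chr8:3690862-3691111, minus strand: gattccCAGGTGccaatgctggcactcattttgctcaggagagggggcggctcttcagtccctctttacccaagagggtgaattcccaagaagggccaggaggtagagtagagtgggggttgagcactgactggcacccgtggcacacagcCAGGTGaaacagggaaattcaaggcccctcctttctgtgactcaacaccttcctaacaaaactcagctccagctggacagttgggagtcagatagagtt
Fcrla, chr1:170927584-170927833, minus strand: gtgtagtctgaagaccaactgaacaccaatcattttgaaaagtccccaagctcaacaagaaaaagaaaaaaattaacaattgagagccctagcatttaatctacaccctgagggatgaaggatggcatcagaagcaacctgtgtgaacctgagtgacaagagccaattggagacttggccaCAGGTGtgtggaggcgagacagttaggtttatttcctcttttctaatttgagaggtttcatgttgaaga
The first base of the E-box lay 154 bases before the start in Cd79a, 88 in Cr2 and 69 in Fcrla, and the Fcer2a window held 2, at 244 and 99 bases. A further E-box stood 245 bases before the start of Cd22, so that 5 of the 8 windows held one, against 17.2% of the 32851 windows of all promoters. Another 3 sets of letters were searched on both strands. The octamer ATGCAAAT was in 0 of the 8 windows (1.6% of all), the EBF1 palindrome (TCCC and GGGA with any 2 bases between) in 1, that of Cd22 (0.779% of all), and the PU.1 core GAGGAA in 2, those of Cd79a and Fcrla (23.3% of all). Matches of different letters did not overlap each other. The E-box was added after the sequences had been seen, a match describes letters only, and a window without a match says nothing of the factor.

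The members were measured by 1 to 4 probes each, and each probe is a single 60-base spot on an array. Of the 17 probes, 3 cross an intron, which is seen from a genomic span longer than the probe. These and 2 further probes are shown on the array's own mm9 positions, all in lower case, to show what a spot of the array reads. Those of Cd22 and Pax5 return in the comparison of probes below, while Cd79a and Blk have 1 probe each.
Cd79a, chr7:25684357-25684614, plus strand: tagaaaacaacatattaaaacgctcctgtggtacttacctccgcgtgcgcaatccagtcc
Blk, chr14:63997333-63998470, minus strand: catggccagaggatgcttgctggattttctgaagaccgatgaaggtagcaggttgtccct
Cd22, chr7:31661143-31662467, minus strand: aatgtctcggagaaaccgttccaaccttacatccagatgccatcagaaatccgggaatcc
Cd22, chr7:31651590-31651649, minus strand: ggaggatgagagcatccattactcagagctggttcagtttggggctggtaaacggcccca
Pax5, chr4:44692322-44692381, minus strand: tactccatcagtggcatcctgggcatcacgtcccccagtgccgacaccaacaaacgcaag

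To ask whether delivery mode went with the B cell genes at weaning, CSD and VD pups were compared in limma, in a model with terms for delivery mode and sex and a random term for the mother. All 9 members had lower mean intensities in CSD than in VD pups, with log2 fold changes between -0.73 (Fcrla) and -0.18 (Pax5). None of the 9 passed the limit of 0.05 on the p adjusted over all genes (Benjamini-Hochberg), a limit that 1.25% of all genes passed. The nearest was Fcer2a, with an adjusted p of 0.075 in limma. At an unadjusted p under 0.05, 5 of the 9 members were lower in CSD pups, against 7.09% of all genes. A negative fold change by itself was shared by 48.3% of all genes, and the median over the members was -0.35, against 0.003 over all genes tested. Markers of the wider colon were present on every array, since each of the 8 epithelial and 8 smooth muscle genes was well above background on all 16. So was at least 1 probe of each member except Blk.

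**Figure D1:**
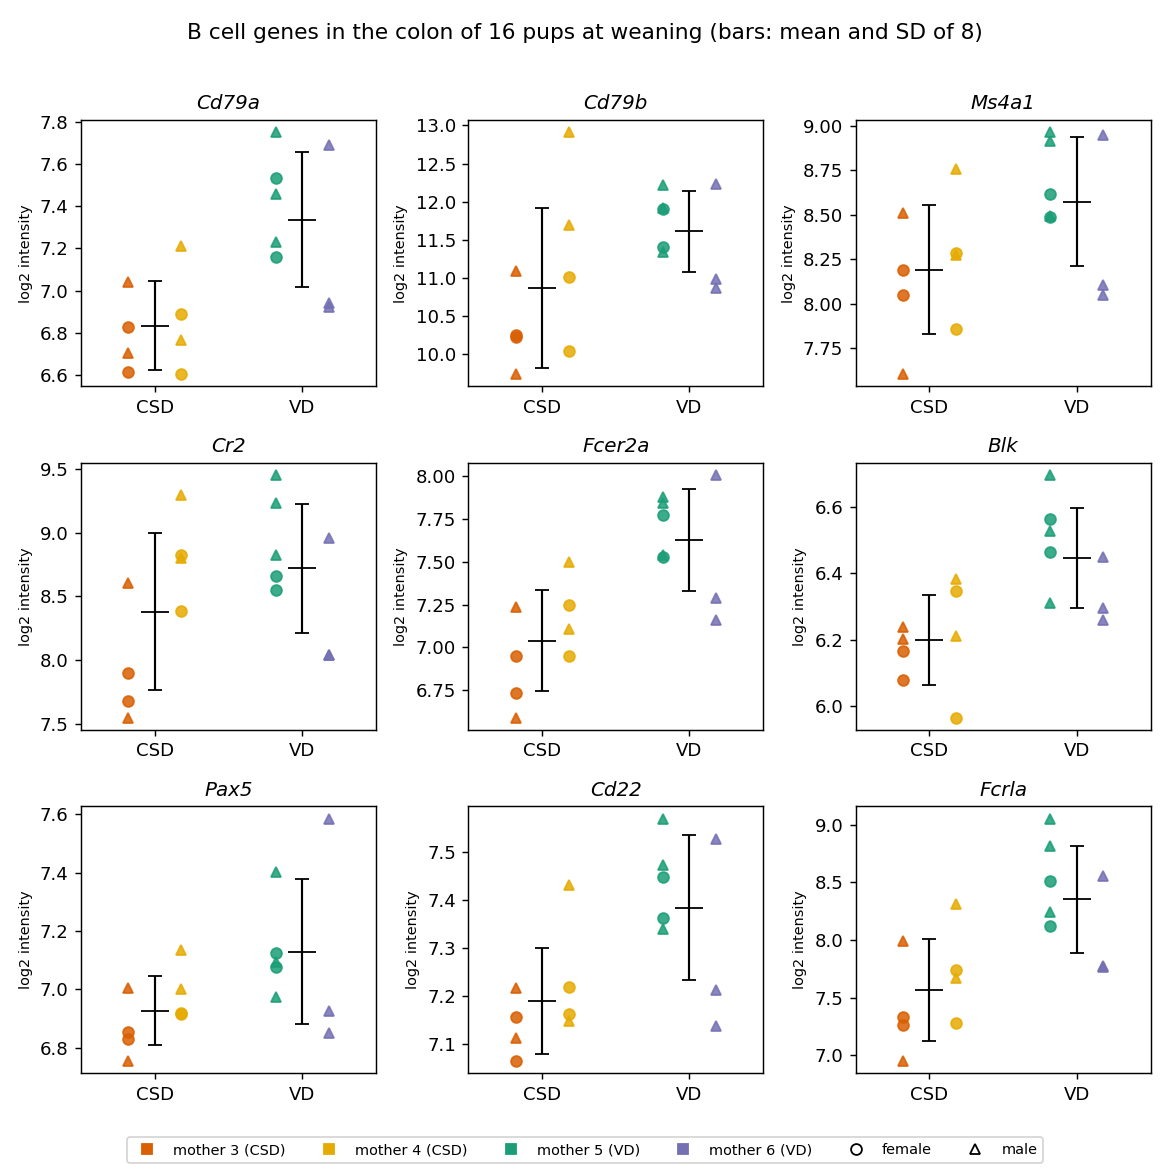
Log2 intensity of each of the 9 B cell genes (y axis, a scale of its own in each panel) in the 8 CSD and 8 VD pups, with colour for the mother, circles for females and triangles for males, and black bars for the mean and SD of 8 pups. The CSD mean lies below the VD mean in all 9 panels, and the groups overlap in each.

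The signalling chains of the receptor were both lower on average in CSD pups, with very unequal precision. Cd79a (chromosome 7) ranged from 6.60 to 7.21 in CSD pups with a median of 6.80, and from 6.92 to 7.75 in VD pups with a median of 7.35. The groups overlapped through CSD pups 6 and 9 at the top of their group and through VD pups 5, 7 and 8 at the bottom of theirs, and the other 6 CSD pups lay under every VD pup. For Cd79a the log2 fold change was -0.48 (standard error 0.14, adjusted p = 0.0993, limma). Cd79b (chromosome 11) ranged from 9.74 to 12.91 in CSD pups (median 10.63) and from 10.87 to 12.24 in VD pups (median 11.66). CSD pup 7, a male of mother 4, was the highest of all 16 pups, although 4 other CSD pups lay under every VD pup. With CSD pup 7 the log2 fold change of Cd79b was -0.60 (standard error 0.39, adjusted p = 0.528, limma), and without it -0.95 (adjusted p = 0.202, limma). Other leave-outs shrank or enlarged it as well, to -0.32 without CSD pup 8, -0.040 without the litter of mother 3, -1.28 without that of mother 4 and -0.0074 without that of mother 5.

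Among the surface molecules, Fcer2a came nearest to the adjusted limit between the groups. Fcer2a (chromosome 8), the low-affinity IgE receptor CD23 of mature follicular B cells, lay between 6.59 and 7.50 in CSD pups (median 7.03) and between 7.16 and 8.003 in VD pups (median 7.66). Of the 8 VD pups, 6 lay above every CSD pup, and VD pups 7 and 8, both sons of mother 6, lay within the CSD range. Its log2 fold change was -0.57 (standard error 0.15, adjusted p = 0.075, limma). Ms4a1 (chromosome 19) encodes CD20, the membrane protein present on B cells until they become plasma cells. It lay between 7.60 and 8.76 in CSD pups (median 8.23) and between 8.05 and 8.96 in VD pups (median 8.56). The ranges overlapped widely, with 3 VD pups above every CSD pup, and the log2 fold change was -0.35 (standard error 0.18, adjusted p = 0.403, limma). Without CSD pup 8 it was -0.22.

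Cr2 (chromosome 1), the complement receptor CD21, is carried by mature B cells and also by follicular dendritic cells. It ranged from 7.55 to 9.30 in CSD pups (median 8.50) and from 8.04 to 9.45 in VD pups (median 8.74). The ranges were almost the same, apart from 3 CSD pups of mother 3 that lay under every VD pup, and the log2 fold change of -0.26 (standard error 0.27) had an adjusted p of 0.726 in limma. Without CSD pup 8 the value for Cr2 was -0.070, and without CSD pup 6 it was -0.42. Cd22 (chromosome 7), a sialic acid binding receptor that restrains receptor signalling, lay between 7.07 and 7.43 in CSD pups (median 7.16) and between 7.14 and 7.57 in VD pups (median 7.41). CSD pup 6 stood away from its group, in the middle of the VD pups, and VD pups 7 and 8 lay low. The log2 fold change of Cd22 was -0.19 (standard error 0.07, adjusted p = 0.204, limma).

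Among genes for proteins inside the cell, Fcrla showed the largest average difference of the set. Fcrla (chromosome 1), an Fc receptor-like protein that stays within B cells, ranged from 6.95 to 8.31 in CSD pups (median 7.50) and from 7.76 to 9.06 in VD pups (median 8.38). Only CSD pups 6 and 9 reached into the VD range, at whose lower end VD pups 7 and 8 lay. Its log2 fold change came to -0.73 (standard error 0.22, adjusted p = 0.125, limma). Blk (chromosome 14), a Src family kinase of the receptor pathway, ranged from 5.97 to 6.38 in CSD pups (median 6.21) and from 6.26 to 6.69 in VD pups (median 6.46). Its probe was well above background on 0 of 8 CSD arrays and on 5 of 8 VD arrays, so the CSD level is only a bound. The CSD pups were set at the dimmest signal measured above background on their arrays, where that was the higher value. Blk was then 1.1-fold higher in VD pups. The VD arrays on which the probe was not above background kept their measured values, so this is not a strict lower bound. The log2 fold change of the measured values of Blk was -0.24 (standard error 0.07, adjusted p = 0.132, limma).

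Pax5 (chromosome 4) is the transcription factor of the set, and its difference between the delivery modes was close in size to that of Cd22. It lay between 6.76 and 7.14 in CSD pups (median 6.92) and between 6.85 and 7.59 in VD pups (median 7.09). The VD range held 6 of the 8 CSD pups, and VD pups 6 and 11 stood above the rest. The log2 fold change was -0.18 (standard error 0.10, adjusted p = 0.418, limma). In none of the 9 members did every CSD pup lie under every VD pup, an order that 0.2% of all genes showed. Both CSD litter means lay under both VD litter means in 7 of 9 members, against 20.3% of all genes, and Cd79b and Cr2 were the exceptions. Because the members varied together, the 7 are not separate observations.

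Other ways of processing mostly kept these directions, but not all of the sizes. Across 39 other settings the members gave 350 values, of which 347 were lower in CSD pups. The 3 exceptions were Cr2 without the litter of mother 3 (0.17) or without that of mother 5 (0.22) and the brightest Cd22 probe (0.02). With the scanner's own background-subtracted signal in place of normexp, the fold changes of the dimmer members were larger, at -0.90 for Cd79a and -1.16 for Blk, with adjusted p of 0.149 and 0.171 in limma. Slide 1 and slide 2 each held 4 CSD and 4 VD pups. No member passed the limit within either slide, where only 11 genes (0.03%) and 0 genes passed in limma, or with the slide as a further fixed effect, and all 9 members were lower in CSD pups on both slides. The log2 fold change of Fcer2a was -0.57 on slide 1 and -0.55 on slide 2, and that of Fcrla was -0.81 and -0.64. Others differed more between the slides, with -0.32 and -0.88 for Cd79b, -0.44 and -0.25 for Ms4a1, -0.38 and -0.14 for Cr2 and -0.13 and -0.24 for Pax5.

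The probes of a gene often differed, and the gene means above blend them. In a fit of all 56366 probes, of which 1.74% were called, 0 of the 17 member probes passed the limit in limma, and 7 had an unadjusted p under 0.05, all lower in CSD pups, as did 7.01% of all probes. Those 7 include the Cd22 probe that was above background on 0 arrays and the Blk probe, above it on 0 of 8 CSD arrays. Ms4a1 had 2 probes above background on all 16 arrays. One, at chr19:11325409-11325468, had a log2 fold change of -0.78 (standard error 0.32), and the other, at chr19:11324334-11324393, one of 0.08 (standard error 0.06). Across the 16 pups the first followed the mean standardised level of the other members with r = 0.97 and the second with r = 0.11. Both are descriptions. Since the other members are themselves lower in CSD pups, the r of a probe and its fold change are not separate observations. Fcer2a showed the same split. Its probe on all 16 arrays, at chr8:3682021-3682080, ranged from 6.84 to 8.56 in CSD pups (median 7.62) and from 8.03 to 9.42 in VD pups (median 8.65). This was the largest difference of any member probe, with r = 0.95, at -1.02 on the log2 scale (standard error 0.27, adjusted p = 0.0648, limma). The other Fcer2a probe, above background on 8 arrays, gave -0.12 and r = 0.40.

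Cd22, with 4 probes, was divided too. The probe at chr7:31651590-31651649 printed above differed by -0.59 on the log2 scale (standard error 0.19, adjusted p = 0.133, limma) and had an r of 0.97 with the other members. The brightest of the 4, at chr7:31651249-31651308, gave 0.02 (standard error 0.07) and an r of 0.07. Of the remaining ones, the printed probe that crosses an intron was above background on 0 arrays and the last on 4. Averaging the 4 gave the small value of -0.19 for the gene. In Pax5 the printed probe at chr4:44692322-44692381 gave -0.09 with an r of 0.38, and the other, above background on 14 arrays, gave -0.28 with an r of 0.90. The 3 probes of Cr2 ran together more closely, with r between 0.71 and 0.93 and log2 fold changes between -0.39 and -0.06.

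**Figure D2:**
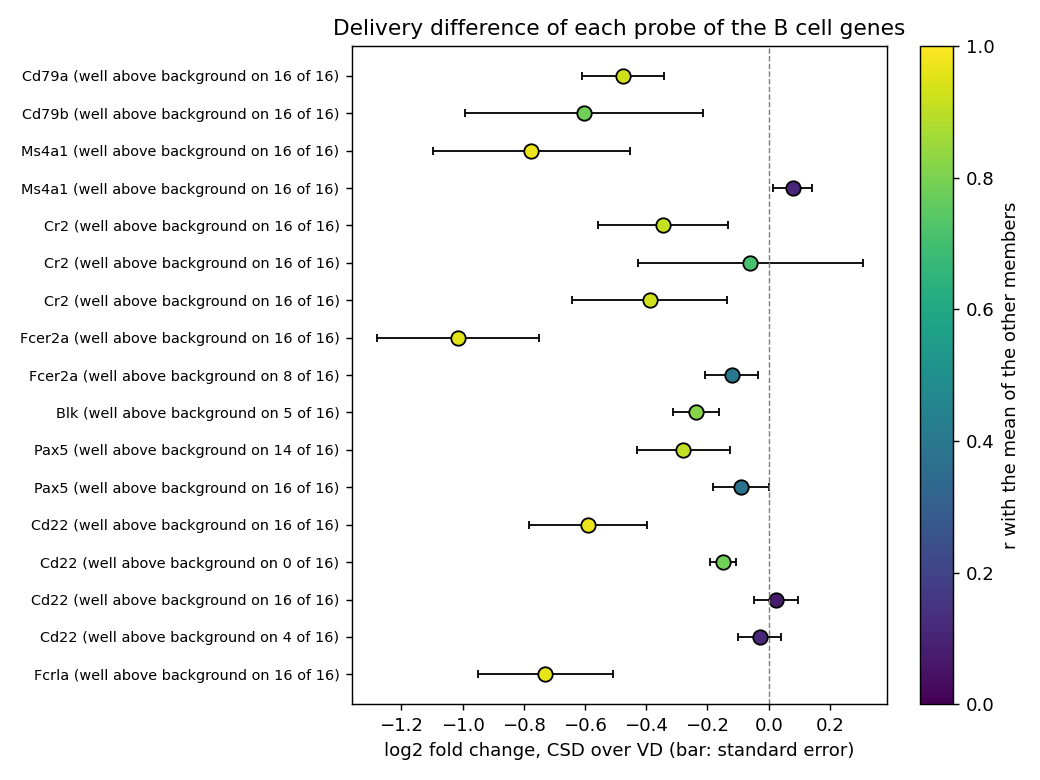
Log2 fold change of CSD over VD pups for each of the 17 probes (x axis, bars are standard errors from limma), with colour for the correlation over 16 pups with the mean of the other members. The 8 probes with an r above 0.9 lie to the left of 0, between -1.02 and -0.28. A further 4 probes with an r of at most 0.38 lie between -0.09 and 0.08. The r spans both delivery modes and the other members are themselves lower in CSD pups, so colour and position are not separate observations.

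Within each delivery mode the means of all 9 members had the same order between its 2 litters. In the pups of mother 3 all 9 members had lower means than in those of mother 4, and in the pups of mother 5 all 9 had higher means than in those of mother 6. No member passed the limit in either comparison, where 0.0872% and 0.874% of all genes were called, and 2 members had an unadjusted p under 0.05 in each, against 7.68% and 11.5% of all genes. Cr2 was one of them in both. Its litter means were 7.93 ± 0.47 (SD, n = 4) for mother 3 and 8.83 ± 0.37 (SD, n = 4) for mother 4, a difference of -0.90 (standard error 0.24, adjusted p = 0.276, limma). For mothers 5 and 6 they were 8.94 ± 0.38 (SD, n = 5) and 8.35 ± 0.53 (SD, n = 3), a difference of 0.77 with sex in the model (standard error 0.26, adjusted p = 0.227, limma). These differences between litters of 1 delivery mode were larger than the -0.26 of Cr2 between delivery modes.

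The size of the delivery difference depended on which litters were in the comparison. Without the litter of mother 6, 5 members passed the limit (Cd79a, Fcer2a, Blk, Cd22 and Fcrla), at a setting where 6.17% of all genes were called, and Fcrla reached -0.95 (adjusted p = 0.0111, limma). Without the litter of mother 5 none passed, at a setting where 0.515% of all genes were called. The log2 fold change of Fcrla there was -0.30 (adjusted p = 0.709, limma). Those of Cd79a (-0.25), Ms4a1 (-0.082), Fcer2a (-0.37), Blk (-0.075) and Cd22 (-0.065) were smaller in size as well. Without the CSD litter of mother 3 or that of mother 4, 0 members passed, with 0.577% and 0.376% of all genes called. In these settings 4 and 8 members had an unadjusted p under 0.05, against 5602 and 4941 of all 36711 genes. Between these 2 settings the log2 fold change went from -0.41 to -0.75 for Fcer2a, from -0.56 to -0.95 for Fcrla, from -0.24 to -0.49 for Ms4a1 and from -0.12 to -0.26 for Pax5. Single VD pups moved calls too. Cd79a and Fcer2a passed without VD pup 7, where 1.68% of all genes were called. Cd79a passed without VD pup 8, where 1.39% were called. With the 4 litter means as samples, Fcer2a had a log2 fold change of -0.56 (adjusted p = 0.335, limma), and 0 members and 0 genes passed, although 4034 genes and 5 members had an unadjusted p under 0.05.

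Sex was compared in the same fit. All 9 members had lower fitted levels in the 6 females than in the 10 males, with log2 fold changes between -0.54 (Cd79b) and -0.03 (Blk), but 0 members had an adjusted or an unadjusted p under the limit in limma, where 0.0599% of all genes passed the first limit and 6.45% the second. The lowest adjusted p was 0.856. On slide 1 alone 1 member was lower in females and the other 8 were higher, and on slide 2 alone 9 were lower, so that the direction was not stable. The interaction of delivery and sex, whether the delivery difference of a gene was unequal in females and males, gave 0 members as well, with unadjusted p of 0.178 or more against 0.00272% of all genes called and 4.72% with an unadjusted p under 0.05. Standard errors of the interaction were large, 0.28 for Cd79a and 0.46 for Fcrla, since only 2 VD pups were female.

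The members varied together from pup to pup. Over the 16 pups the 36 pairs of members had Pearson correlations between 0.64 and 0.96, with a median of 0.82, and Spearman correlations between 0.67 and 0.97. All 36 passed a permutation test of 100000 resamples after Benjamini-Hochberg adjustment over the pairs, with a largest adjusted p of 0.00793 for r and 0.00552 for rho. Pups were permuted without regard to delivery mode or litter, so these p-values do not separate variation between the groups from variation within them. Leaving out the 2 pups farthest from the median of the first gene of a pair gave r between 0.59 and 0.97. The pairs also ran together within the delivery modes, with a median r of 0.79 in the 8 CSD pups (lowest 0.41) and 0.88 in the 8 VD pups (lowest 0.62), and within slide 1 (0.82, lowest 0.28) and slide 2 (0.90, lowest 0.75). These values within groups are descriptions. All genes of an array share its hybridisation and normalization, and the SD over the 16 pups was 0.16 for Cd22 and 0.89 for Cd79b, the extremes of the set, against a median of 0.11 over all genes.

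**Figure D3:**
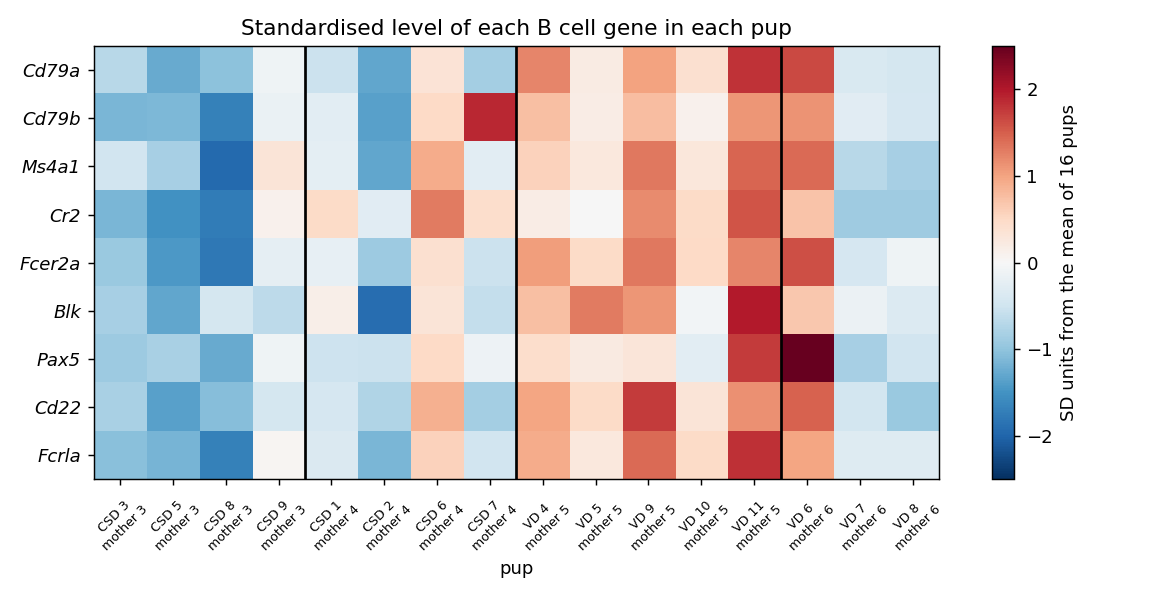
Level of each B cell gene (rows) in each of the 16 pups (columns, ordered by delivery mode and mother, with black lines between litters), in SD units from the mean of the 16 pups. Whole columns share a colour, as in VD pup 11 and CSD pup 8, and Cd79b in CSD pup 7 breaks from its column.

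Averaged over the 8 members with a probe above background on all arrays, standardised levels ran from -1.53 SD units in CSD pup 8 to 1.48 in VD pup 11. The arrays of CSD pups 8 and 7 had the most outlier spots, 200 and 205. That of VD pup 11 had the lowest share of spots well above background, 58.7%. Whether this bears on their levels was not tested. The 4 highest pups were VD pups 11, 6, 9 and 4, and the next was CSD pup 6 at 0.68, above 4 of the VD pups. The 3 lowest were CSD pups 8, 5 and 2, and VD pups 7 and 8 (-0.53 and -0.55) lay beneath CSD pups 1, 7 and 9. So the order of the pups was not that of the delivery modes alone. The largest departure from this order was that of Cd79b in CSD pup 7. Its r with the mean of the other members was 0.78 over 16 pups and 0.97 without CSD pup 7. In that pup the single Cd79b spot had a mean signal of 8091 over a local background of 25, was neither saturated nor marked as an outlier, and lay above the 4758 of VD pup 11, the next brightest. The other members placed CSD pup 7 in rank 10 of 16. Whether this spot reports Cd79b RNA was not tested.

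**Figure D4:**
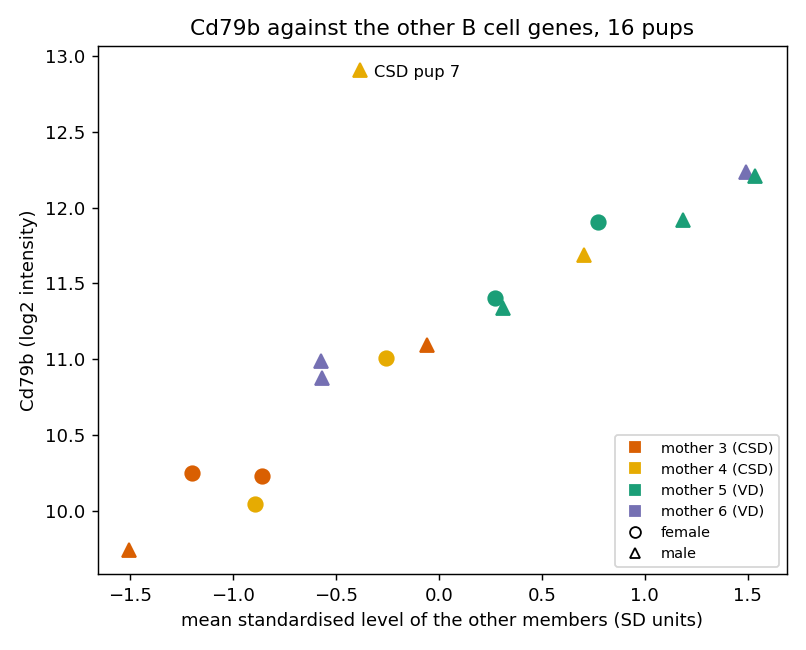
Cd79b (y axis, log2 intensity) against the mean standardised level of the other members (x axis, SD units) in the 16 pups, with colour for the mother and symbol for the sex. CSD pup 7 lies at 12.91, above all other pups, at a middling level of the other members (-0.38), and the other 15 pups have an r of 0.97.

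The genes whose pattern was most like that of the members were sought among 20527 other genes with a probe above background on all arrays and a value in every pup, by r with the mean standardised level of 8 members over the 16 pups. The median r was -0.04, and 286 genes, 1.39%, had an r above 0.8. The 10 highest had an r between 0.97 and 0.98, and 9 of them were Fcmr, Cd37, Tnfrsf13c, Stap1, Bank1, ENSMUST00000194162, ENSMUST00000177715, Il16 and Ciita. Fcmr is the receptor for the constant part of IgM, Cd37 a tetraspanin of lymphocytes and Tnfrsf13c the receptor for the survival factor BAFF. Stap1 and Bank1 are adaptors of receptor signalling, Il16 a cytokine of lymphocytes, and Ciita the regulator of MHC class II genes. The pair known only by Ensembl name had their probes on chromosome 12. With the delivery mode means taken out, the r of Fcmr was 0.97 and that of Cd37 0.98. Between delivery modes the log2 fold change was -0.99 for Fcmr (standard error 0.34, adjusted p = 0.167, limma), not past the limit.

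Other genes of the B cell receptor pathway were lower in CSD pups in most cases. Here and in the lists that follow, genes were counted by the sign of the log2 fold change fitted with sex in the model. Over all genes tested, 48.3% were lower in CSD pups, 7.09% were lower with an unadjusted p under 0.05 in limma, and 1.25% were called. At that last share, 0 calls in a list this short say little. Of the 18 coreceptor and signalling genes, 15 had a lower mean in CSD pups, 11 of them with an unadjusted p under 0.05 and 1 of them called in limma, and the median log2 fold change was -0.22. The 3 that were higher, named after their values were seen, were Blnk, Syk and Fcgr2b, with log2 fold changes of 0.02, 0.09 and 0.03. Of the 12 transcription factors of B cells all had lower means (median -0.18), 7 with an unadjusted p under 0.05 and 0 called in limma, with Bcl11a at -0.20 (adjusted p = 0.0944) and Pou2f2 at -0.20 (adjusted p = 0.128) the nearest. Of 15 other surface genes of B cells 13 were lower (median -0.27), 7 with an unadjusted p under 0.05 and 0 called, and Tnfrsf13b, the receptor TACI, was the nearest at -0.44 (adjusted p = 0.0806, limma), followed by Cd37 at -0.61 (adjusted p = 0.091, limma).

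Genes of the follicle itself gave a mixed picture. The shares over all genes were again 48.3% lower in CSD pups, 7.09% lower with an unadjusted p under 0.05 in limma and 1.25% called. Of 11 chemokine and survival genes measured out of 12 listed, 10 had lower means in CSD pups, 8 with an unadjusted p under 0.05, and the median was -0.43. The nearest to the limit were Gpr183, a receptor that guides B cells within the follicle, at -0.35 (adjusted p = 0.0818, limma) and Lta, lymphotoxin alpha, at -0.35 (adjusted p = 0.125, limma). Named after their values were seen, Cxcl13, the chemokine that draws B cells into follicles, had an r of 0.95 with the members, and its receptor Cxcr5 one of 0.96. Of the 7 germinal centre genes 5 were lower in CSD pups (median -0.03), among them S1pr2, a receptor that holds B cells in the germinal centre, named after its values were seen, at -0.24 (adjusted p = 0.0635, limma). The only one called, Bcl6, the master regulator of the germinal centre B cell, was higher in CSD pups. Its log2 intensity averaged 9.03 ± 0.21 (SD, n = 8) among CSD pups and 8.63 ± 0.16 (SD, n = 8) among VD pups. The fold change of Bcl6 on the log2 scale, 0.41, had a standard error of 0.09 and an adjusted p of 0.0409 in limma, and its r with the members was -0.33. The call was lost in 24 of 39 other settings. Bcl6 is also made by many other cells. Of 5 genes of high endothelial venules, where lymphocytes leave the blood, 4 were lower (median -0.33) and 0 called, with Ackr1 at -0.33 (adjusted p = 0.178, limma) and Fut7 at -0.51 (adjusted p = 0.382, limma). Of 8 genes of the epithelium over follicles 7 were lower (median -0.17), 3 of them with an unadjusted p under 0.05. Anxa5, which many cells make, was called at -0.38 (standard error 0.08, adjusted p = 0.0399, limma), a call lost in 23 of 39 other settings.

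**Figure D5:**
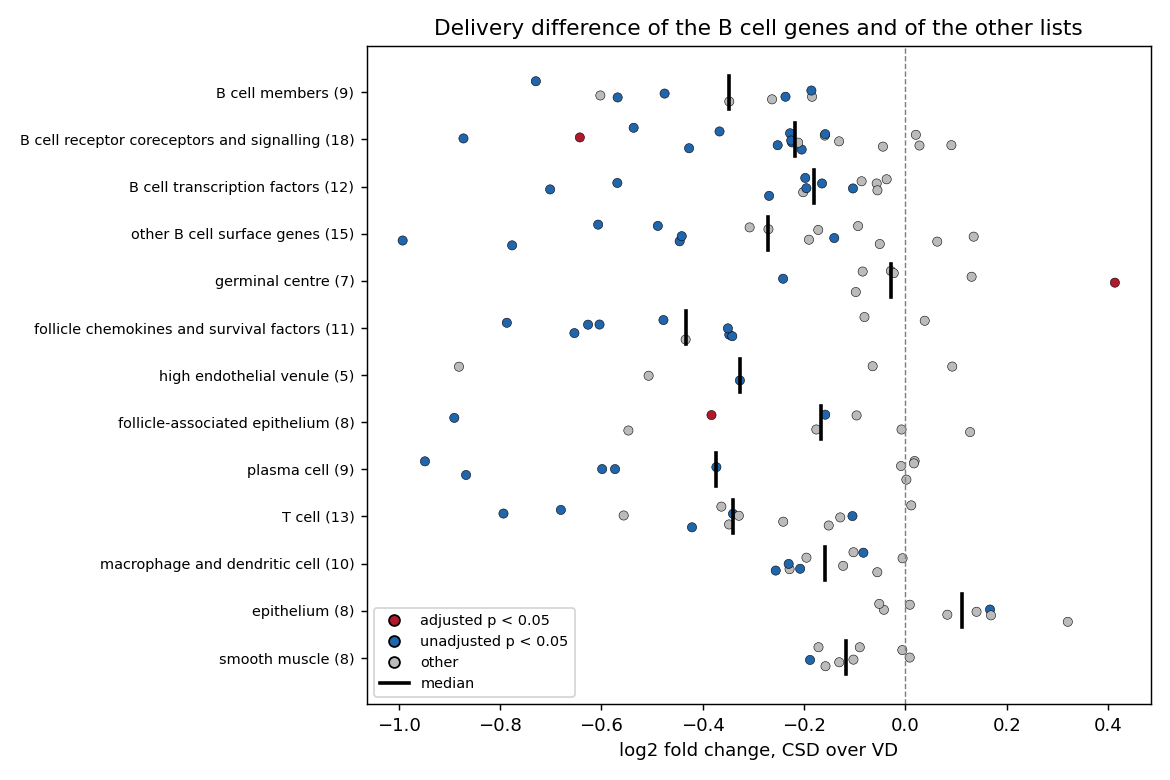
Log2 fold change of CSD over VD pups (x axis) for each gene of the B cell set and of the 12 other lists (rows, with the number of genes measured), where red marks genes called at an adjusted p under 0.05, blue those with an unadjusted p under 0.05, and black bars the median of a list. The medians run from -0.43 for the follicle chemokines to 0.11 for the epithelium, and the genes in red include Anxa5 and, to the right of 0, Bcl6.

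Markers of other immune cells had lower means in CSD pups in most cases, and 0 of them were called. Among all genes 48.3% were lower, 7.09% were lower with an unadjusted p under 0.05 in limma and 1.25% were called. With so small a share called, 0 calls in these short lists say little. Of 13 T cell genes 12 had lower means in CSD pups (median -0.34), 5 with an unadjusted p under 0.05 and 0 called, and Cd28 (-0.34, adjusted p = 0.229, limma) and Cd8b1 (-0.79, adjusted p = 0.232, limma) were the nearest. The mean log2 intensity of the list was 7.73 ± 0.28 (SD, n = 8) among CSD pups and 8.12 ± 0.41 (SD, n = 8) among VD pups, and 12 of the 13 were above background on all arrays. Of 9 plasma cell genes 6 had a fitted value under 0 (median -0.37), 5 with an unadjusted p under 0.05 and 0 called, and Irf4 (-0.37, adjusted p = 0.0809, limma) and Mzb1 (-0.87, adjusted p = 0.162, limma) were the nearest. The other 3, named after their values were seen, were Sdc1 (0.0020), Prdm1 (0.018) and Pigr (0.017), an epithelial gene that carries IgA, and the group means of Prdm1 had the opposite order. For plasma cell genes the mean log2 intensity of the list was 10.25 ± 0.36 (SD, n = 8) among CSD pups and 10.67 ± 0.20 (SD, n = 8) among VD pups. The plasma cell list, which includes the epithelial gene Pigr, had a median r of 0.53 with the members over 9 genes. The T cell list had one of 0.81 over 12 genes. The r ran from -0.17 (Prdm1) to 0.85 (Irf4) in the plasma cell list and from 0.45 (Cd247) to 0.88 (Cd3e) in the T cell list. These values describe the lists, without a test. All 10 macrophage and dendritic cell genes had fitted values under 0 (median -0.16), 4 with an unadjusted p under 0.05 and 0 called. Xcr1, at -0.0055, was above background on 0 arrays. The nearest to the limit were C1qc at -0.21 (adjusted p = 0.143, limma) and Itgax at -0.23 (adjusted p = 0.149, limma). The median r of this list with the members was 0.48 over 9 genes. Its mean log2 intensity was 8.42 ± 0.15 (SD, n = 8) among CSD pups and 8.60 ± 0.10 (SD, n = 8) among VD pups.

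The colon's own tissue was followed by 8 epithelial and 8 smooth muscle genes. For comparison, 48.3% of all genes had a fitted value under 0 and 1.25% were called. Of the 8 epithelial genes 6 had a fitted value above 0 (median 0.11), among them Vil1 at 0.0088, whose group means had the opposite order, and 0 were called, with Epcam at 0.17 (adjusted p = 0.257, limma) and Cldn7 at 0.14 (adjusted p = 0.377, limma). For the epithelium the mean log2 intensity of the list was 15.20 ± 0.16 (SD, n = 8) among CSD pups and 15.12 ± 0.13 (SD, n = 8) among VD pups, and their median r with the members was -0.17. Of the 8 smooth muscle genes 7 had a fitted value under 0 (median -0.12), among them Mylk at -0.0060, whose group means had the opposite order, and 0 were called, with Smtn at -0.19 (adjusted p = 0.275, limma) and Acta2 at -0.17 (adjusted p = 0.419, limma). For smooth muscle the mean log2 intensity of the list was 13.01 ± 0.16 (SD, n = 8) among CSD pups and 13.13 ± 0.17 (SD, n = 8) among VD pups, and the median r with the members was 0.15. Without the litter of mother 5 the values of several genes named from the lists came closer to 0, to -0.016 for Ackr1, -0.016 for Acta2, -0.16 for Gpr183, -0.23 for Anxa5 and -0.45 for Fcmr. What part these other cell types have in the differences of the members was not tested.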

How the data were processed

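The authors deposited the scanner output of 16 arrays (Feature Extraction 12.0.3.2), in which each spot has a mean intensity, a median background and quality marks, and a gene matrix of log2 values made with limma 3.38, in which arrays had been quantile-normalized, dim probes dropped and probes averaged by gene. The spots (62976 per array) were corrected here by normexp with an offset of 50, log2 transformed and quantile-normalized in limma 3.58.1 (R 4.3.3). Control and outlier spots were dropped, probes were kept if above the 5% quantile of the array in at least 4 arrays, and values were averaged by probe and then by gene name. The members and lists were chosen with earlier results of these data known. The model was lmFit and eBayes with delivery mode, sex and a random mother (consensus correlation 0.015), with Benjamini-Hochberg adjustment over 36711 genes. Litters of one delivery mode were compared with the mother as a fixed factor, and correlations between members by permutation. The fit was tested on simulated data, where a larger share of the calls was false than the adjusted limit allows. Genes named beside the members are, from each list, those called between CSD and VD, otherwise the 2 with the smallest p, and the 10 genes most like the members. Promoters come from RefSeq (GRCm38.p6), which differs from the array's build, and coordinates were not converted. Alternatives were other background corrections and filters, the brightest probe, the deposited matrix, other models, the slide, a paired fit and leaving out pups or litters. Pups of a litter are separate animals. The highest correlation between arrays was 0.997, and no array was counted as a repeat of another. How many pups and litters there were sets the precision. Some genes that these rules name are not reported here.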

Additional observations from a re-analysis of the deposited data

Results flagged for a closer look

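Cd22 in CSD pup 6 was the only value of a member to stand apart from its group. At a log2 intensity of 7.43 it lay farther from the next CSD pup, relative to the range of the 8 CSD pups, than Dixon's 95% limit allows. Of the 18 groups examined (9 members in CSD and in VD pups) 1 was singled out, and chance alone singles out about 1 in 20. The same pup had the highest CSD value of 7 of the other 8 members, Cd79b being the exception.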

How the results depend on the processing

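No member passed the adjusted limit between CSD and VD pups in 34 of 39 other settings. The exceptions were 2 members without sex in the model, 2 at an adjusted p under 0.1, and the pups and litters of mother 6 named above, so that leaving out pups or litters gave 0 to 5. The number of all genes called, 460 in the comparison as reported, was 102 with offset 0, 243 with offset 16, 177 with the scanner-processed signal and quantile normalization, 164 with that signal minus the 75th percentile, 170 in the deposited matrix, 992 without sex, 1126 at an adjusted p under 0.1, 11 on slide 1 only and 0 on slide 2 only (3789 at an unadjusted p under 0.05). It was 0 in males only (3295 at an unadjusted p under 0.05) and 0 with litter means as samples (4034), and 138 (without the litter of mother 4) to 2265 (without that of mother 6) when pups or litters were left out. The cause was not tested, but males only, single slides and litter means hold fewer samples. The log2 fold change of Cr2 ranged from -0.74 to 0.22 when pups or litters were left out, and the brightest probe of Cd22 gave 0.024.

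Between females and males the direction was not stable. On slide 1 only it turned positive for Cd79a (0.044), Ms4a1 (0.16), Cr2 (0.029), Fcer2a (0.13), Blk (0.10), Pax5 (0.0397), Cd22 (0.025) and Fcrla (0.052), and with the brightest probe for Cd22 (0.075). Leaving out pups or litters gave -0.24 to 0.0095 for Ms4a1, -0.15 to 0.0056 for Fcer2a, -0.12 to 0.017 for Blk and -0.076 to 0.0073 for Cd22. No member was called by sex, by its interaction with delivery or between litters in any setting run. The median correlation between members stayed between 0.79 and 0.87 in the 18 settings run for it. Within single delivery modes and slides the medians ran from 0.79 in CSD pups to 0.90 on slide 2.

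The numbers in the pups' titles (5 to 9 occur in both groups) were not taken to pair the pups. Deviations of same-numbered pups from their group means had correlations of 0.12, 0.22, 0.02, -0.05 and 0.06. Differently numbered pups were not compared, so these values cannot decide whether the numbers mark pairs. With that number as a replicate block in these 10 pups 0 genes and 0 members were called (4745 genes and 6 members at an unadjusted p under 0.05, limma). No block was fitted for sex, which is constant within these pairs, nor the interaction without mother 5, whose litter holds the only VD females. Keeping outlier spots, an alternative chosen after seeing the data, left 0 members called. Blk, the second probe of Fcer2a and 2 probes of Cd22 lay near background, which limits their folds.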
